A study of Rattus norvegicus with 6 samples.

Results

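The genes of 9 secreted acute phase proteins were followed in cultured heart muscle cells after treatment with hCT1, the human form of the cytokine cardiotrophin 1. The members were Serpina3n, A2m, Lbp, Cp, Hp, Lcn2, Orm1, Itih3 and Itih4, taken as every probe set that the platform annotation pairs with exactly 1 gene symbol of this list. Each gene had 1 such probe set, giving 9 genes of the 14506 with a probe set of their own and 9 probe sets of 29215 on the array, and no member shared a probe set with another gene. The cells were primary cardiomyocytes from ventricles of 2-day-old Sprague-Dawley rats, enriched by pre-plating and held in serum-free medium. Over 24 h, 1 group received hCT1 at 0.5 nM and the other received control serum-free medium, and each group had 3 samples on 3 arrays. All 6 records also carry a growth protocol that names a hypertrophic agonist in the medium. The study's methods, by contrast, name serum-free medium as the non-hypertrophic control. If the growth protocol did apply to the control cultures, every difference below is against cells exposed to such an agonist. RNA was isolated in triplicate, and separate cultures are not stated. The p-values therefore reflect how far the 3 samples of a group differed, and that spread may be technical.

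Acute phase proteins are plasma proteins whose production, chiefly by the liver, changes during infection or injury. Cytokines of the interleukin-6 family, to which cardiotrophin 1 belongs, signal through the receptor chain gp130 and the transcription factor STAT3, and C/EBP factors and NF-κB take part in inducing many acute phase genes. The 9 products have different roles. Serpina3n and A2m inhibit proteases, Lbp presents bacterial lipopolysaccharide to CD14, and Lcn2 (lipocalin 2) withholds iron from bacteria by binding siderophores. Cp (ceruloplasmin) is a copper-carrying ferroxidase, Hp (haptoglobin) binds free hemoglobin, and Orm1 is a glycoprotein that carries lipophilic ligands. Itih3 and Itih4 belong to the family of inter-alpha-trypsin inhibitor heavy chains, some of which are linked to hyaluronan and matrix stability.

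With hCT1, 5 of the 9 members rose and 0 fell, while 4 did not pass the test. The 5 were Serpina3n, Lbp, Lcn2, Cp and Itih4, with fold changes from 3.89 to 1.23. A2m, Hp, Orm1 and Itih3 did not pass. Of the 15310 probe sets tested with limma, 4.98% were higher and 9.84% lower at a Benjamini-Hochberg adjusted p under 0.05. The hCT1 and control samples did not overlap in 6 of the 9 members, with hCT1 above control in 6 and below it in 0. Over all probe sets tested these shares were 13.9% and 20.5%. The median log2 fold change was 0.30 over the members and -0.000483 over the 14506 genes tested. The count of 5 was also obtained when each sample was left out in turn. By exact permutation of the sample labels, 2-sided, the smallest p this design allows is 0.1.

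**Figure D1:**
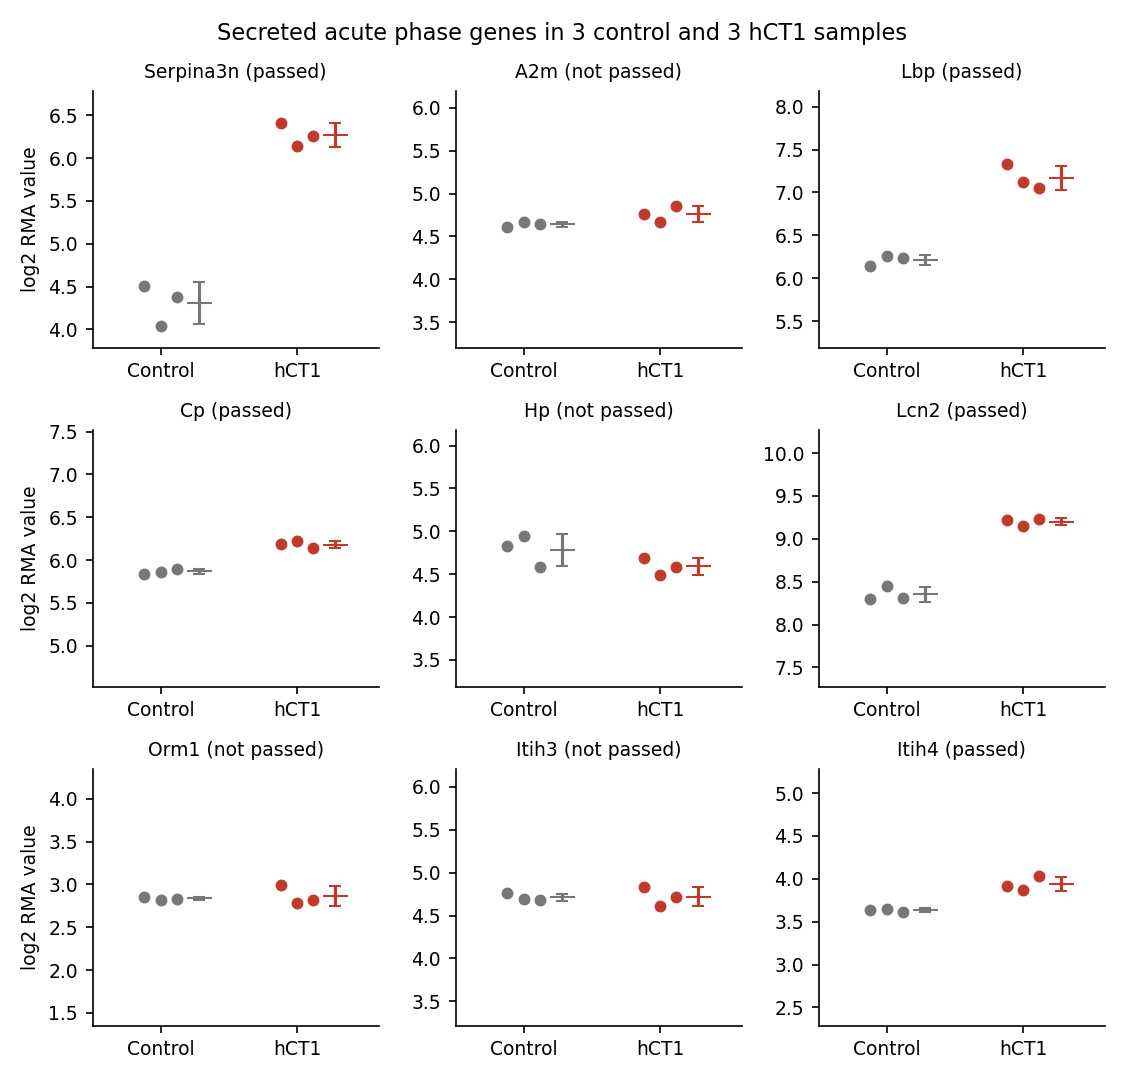
Panels give the log2 RMA value of 1 member each for 3 control (grey) and 3 hCT1 (red) samples; points are samples, the dash is the mean, the error bar is the SD, and every panel spans the same range on the log2 scale. The groups lie far apart for Serpina3n (means 4.31 and 6.27), Lbp (6.21 and 7.17) and Lcn2 (8.35 and 9.20), less so for Cp and Itih4, and they overlap for Hp, Orm1 and Itih3.

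The sequence around the gene start was searched for motifs of STAT, C/EBP and NF-κB factors and of the interleukin-6 response. The search is a description, and no cause of the changes was tested. RefSeq windows (build GRCr8) from 250 bases before to 50 bases after the annotated start were given for 6 of the 9 members. Those of Serpina3n (chr6:129088142-129088441, plus strand), Itih4 (chr16:6086735-6087034, plus strand) and Lcn2 (chr3:36081731-36082030, minus strand) are shown as members that rose and hold a match to a cytokine-response motif. Orm1 (chr5:81788259-81788558, plus strand) did not pass and holds neither of these cores, though it has C/EBP type and NF-κB type matches, and Cp (chr2:104368420-104368719, plus strand) rose and holds no match to any motif searched. Capitals mark the STAT core TTCNNNGAA and the interleukin-6 response element core CTGGGAA, searched on both strands.
Serpina3n: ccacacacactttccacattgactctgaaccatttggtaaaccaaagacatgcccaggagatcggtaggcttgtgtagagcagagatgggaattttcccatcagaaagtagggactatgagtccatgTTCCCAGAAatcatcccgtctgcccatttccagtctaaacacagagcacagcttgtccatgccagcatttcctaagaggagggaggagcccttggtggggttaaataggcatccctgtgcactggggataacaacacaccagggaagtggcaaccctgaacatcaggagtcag
Itih4: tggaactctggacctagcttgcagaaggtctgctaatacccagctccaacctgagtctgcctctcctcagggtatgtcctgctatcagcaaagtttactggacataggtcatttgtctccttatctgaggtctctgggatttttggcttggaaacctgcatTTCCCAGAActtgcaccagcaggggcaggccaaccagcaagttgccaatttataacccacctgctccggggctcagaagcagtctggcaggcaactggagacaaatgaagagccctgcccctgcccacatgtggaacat
Lcn2: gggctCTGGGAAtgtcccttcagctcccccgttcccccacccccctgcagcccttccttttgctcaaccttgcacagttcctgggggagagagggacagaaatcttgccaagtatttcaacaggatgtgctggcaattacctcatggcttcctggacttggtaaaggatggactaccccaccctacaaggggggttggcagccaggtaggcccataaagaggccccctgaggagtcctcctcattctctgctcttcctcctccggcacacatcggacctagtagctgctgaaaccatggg
Orm1: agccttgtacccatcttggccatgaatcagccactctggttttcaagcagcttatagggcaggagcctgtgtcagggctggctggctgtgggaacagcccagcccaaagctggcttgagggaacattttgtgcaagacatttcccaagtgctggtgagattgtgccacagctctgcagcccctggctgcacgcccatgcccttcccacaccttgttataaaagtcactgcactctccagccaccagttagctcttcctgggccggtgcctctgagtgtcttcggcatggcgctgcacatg
Cp: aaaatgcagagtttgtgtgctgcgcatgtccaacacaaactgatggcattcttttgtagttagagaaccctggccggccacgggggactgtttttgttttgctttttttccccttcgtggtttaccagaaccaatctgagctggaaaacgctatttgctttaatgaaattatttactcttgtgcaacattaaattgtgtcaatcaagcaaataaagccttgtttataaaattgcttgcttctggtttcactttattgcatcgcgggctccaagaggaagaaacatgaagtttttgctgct

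The windows of Serpina3n and Itih4 hold the same 9 letters, TTCCCAGAA, in which a STAT core overlaps an interleukin-6 response element core read on the other strand. The match starts at position -123 from the gene start in Serpina3n and at -89 in Itih4. Lcn2 has the element core CTGGGAA at position -245 and no STAT core. Thus 2 of the 6 windows held the STAT core and 3 the element core. Among all 33469 RefSeq windows of the same length these shares were 8.87% and 11.3%. A C/EBP type motif (TTNNGNAAT) lay in Serpina3n and Orm1, against 12.3% of all windows. A loose NF-κB motif, GGG and CC with any 5 bases between them, lay in Serpina3n, Lcn2, Orm1 and Itih4, against 47.3% of all windows, and overlaps the element core in Lcn2. The windows of Cp, which rose, and of Itih3, which did not pass, held none of the 4 motifs. These matches describe letters in a short window; binding was not measured.

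**Figure D2:**
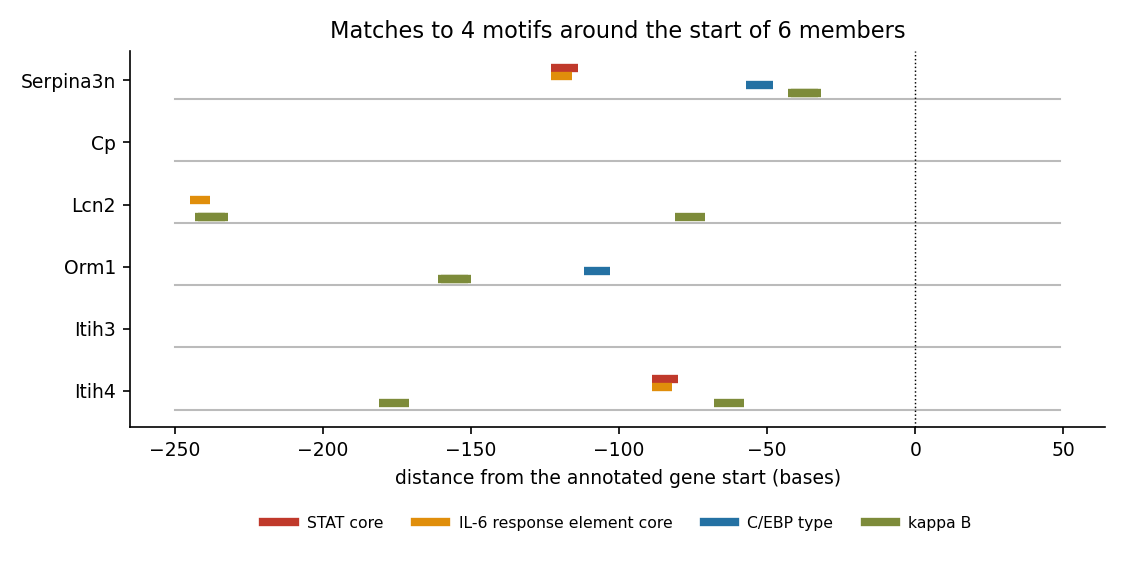
Matches to 4 motifs are drawn by their distance in bases from the annotated gene start for the 6 members with a RefSeq window; each grey line is a window and overlapping matches of 1 motif are drawn as 1 bar. The STAT core and the interleukin-6 response element core coincide in Serpina3n at -123 and in Itih4 at -89, and Cp and Itih3 have no match.

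Among the protease inhibitors, Serpina3n rose furthest of all members. Its log2 value was 4.51, 4.04 and 4.38 in control replicates 1 to 3 and 6.41, 6.14 and 6.25 in hCT1 replicates 1 to 3. The lowest hCT1 sample lay 1.63 above the highest control sample on the log2 scale. The mean went from 4.31 ± 0.24 to 6.27 ± 0.14 (SD, n = 3 each), a fold change of 3.89 (95% interval 3.23 to 4.68, adjusted p = 1.62e-05 from limma), which ranked 9 by log2 fold change among the 15310 probe sets. The control mean lay at percentile 33.4 of the control means of all probe sets. The gene lies in a cluster of Serpina3 genes on chromosome 6, and relatives of similar sequence may share probe signal.

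A2m, the alpha-2-macroglobulin gene and a classical acute phase gene of the rat liver, did not pass. Its log2 value was 4.61, 4.67 and 4.64 in control samples and 4.76, 4.67 and 4.86 in hCT1 samples. The groups were apart by 0.0084, less than the spread within either group. The log2 difference was 0.13 (95% interval -0.02 to 0.27, adjusted p = 0.215 from limma). The percentile of its mean was 38.4 in control and 39.8 in hCT1 samples, and the filter on dim probe sets removed it, so the interval sets no limit on a change that a brighter probe set might show.

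The antibacterial proteins Lbp and Lcn2 both rose, Lbp with the widest spread among hCT1 samples of all members (SD 0.14) and Lcn2 with a narrow one (SD 0.04). Lbp was 6.15, 6.25 and 6.23 in control samples and 7.33, 7.12 and 7.06 in hCT1 samples on the log2 scale. All hCT1 values lay at least 0.80 above all control values. The fold change was 1.94 (95% interval 1.72 to 2.19, adjusted p = 8.58e-05 from limma). Lcn2 was 8.29, 8.45 and 8.31 in control samples and 9.22, 9.15 and 9.23 in hCT1 samples. It was the member whose probe set stood highest among all probe sets in control samples, at percentile 80.8, and the groups were apart by 0.70. Its fold change was 1.80 (95% interval 1.63 to 1.98, adjusted p = 5.69e-05 from limma). The intervals of Lbp and Lcn2 overlapped each other, and both lay below that of Serpina3n; the differences between members were not tested.

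Of the metal and heme binding proteins, Cp rose by a small amount and Hp did not pass. Cp was 5.84, 5.86 and 5.90 in control samples and 6.19, 6.22 and 6.14 in hCT1 samples on the log2 scale. The groups were apart by 0.24, more than the range of 0.06 within the control and 0.08 within the hCT1 samples. The fold change of Cp was 1.24 (95% interval 1.14 to 1.35, adjusted p = 0.00584 from limma). Hp was 4.83, 4.95 and 4.58 in control samples and 4.69, 4.50 and 4.58 in hCT1 samples, so that the groups overlapped. Hp was the 1 member with a log2 difference below 0, at -0.20 (95% interval -0.41 to 0.02, adjusted p = 0.202 from limma). Without control replicate 3, the lowest control sample, the difference in Hp was -0.30 and passed as lower (adjusted p = 0.0359 from limma). Leaving out the lowest control sample raises the control mean and so enlarges a fall. The mean of Hp lay at percentile 40.5 in control and 37.0 in hCT1 samples, and the filter on dim probe sets removed it.

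The pair of inter-alpha-trypsin inhibitor genes differed in their calls. Itih4 was 3.64, 3.65 and 3.62 in control samples and 3.92, 3.87 and 4.03 in hCT1 samples on the log2 scale. Every hCT1 sample lay at least 0.22 above every control sample. The fold change was 1.23 (95% interval 1.12 to 1.35, adjusted p = 0.011 from limma), although the control mean lay at percentile 22.7, where values may be background. Itih3 was 4.76, 4.69 and 4.69 in control samples and 4.83, 4.61 and 4.71 in hCT1 samples, with a log2 difference of 0.01 (95% interval -0.15 to 0.16, adjusted p = 0.958 from limma). The groups of Itih3 overlapped. In the RefSeq gene table the genes Itih4, Itih3 and Itih1 lie next to each other on chromosome 16. Itih1 had a log2 difference of 0.00125 and did not pass either.

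Orm1, which encodes the acid glycoprotein of plasma, was 2.86, 2.82 and 2.83 in control samples and 3.00, 2.78 and 2.82 in hCT1 samples on the log2 scale. The groups overlapped, with a log2 difference of 0.03 (95% interval -0.12 to 0.18, adjusted p = 0.807 from limma). The control mean lay at percentile 11.4, the dimmest of the members, so the gene may not have been detected in either group.

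**Figure D3:**
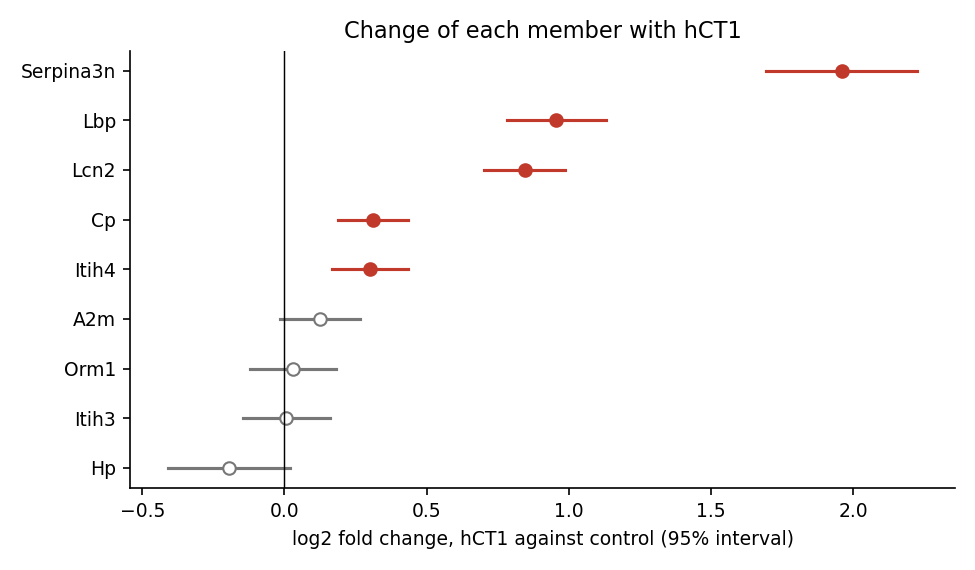
The log2 fold change of each member, hCT1 against control, is drawn with its 95% interval from limma; red filling marks the members that limma called, and open grey points were not called. Serpina3n stands at 1.96, Lbp and Lcn2 at 0.96 and 0.84, Cp and Itih4 at 0.31 and 0.30, and the other 4 intervals include 0.

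Within groups the members did not all order the samples alike. Among hCT1 samples, replicate 1 was the highest for 5 members (Serpina3n, Lbp, Hp, Orm1 and Itih3) and replicate 2 the lowest for 7. Among control samples, replicate 2 was the highest for 5 members, yet it was the lowest for Serpina3n and Orm1. Only in Serpina3n, Hp and Lbp did the range within a group exceed 0.25 on the log2 scale, up to 0.47 in the control samples of Serpina3n. The 3 members with an SD of at least 0.3 over the 6 samples were compared with all other genes by the distance between centred profiles over these samples, a measure that mostly follows the size of the change. The nearest genes were Crtac1, Krt19 and Cxcl11 for Serpina3n (distances 0.199, 0.353 and 0.419; log2 fold changes 2.04, 1.82 and 2.14). For Lbp they were Bst1, Ptgis and Olfm1 (0.138, 0.162 and 0.185). For Lcn2 they were Osmr, a receptor chain of the oncostatin M receptor, then Olfm1 and Lrrc2 (0.138, 0.149 and 0.165).

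Among 25 other positive acute phase genes measured, 7 rose and 1 fell, and the other 17 did not pass. Shares over all probe sets tested were 4.98% higher and 9.84% lower. The list's median was 0.09 on the log2 scale. The largest rises were in Serping1, the C1 esterase inhibitor (log2 fold change 1.51, adjusted p = 3.65e-06 from limma), Hamp, the iron hormone hepcidin (1.44), and the complement gene C3 (0.98). Timp1, an inhibitor of matrix metalloproteinases, rose by 0.50 and the pantetheinase gene Vnn1 by 0.26. The kininogen genes Kng1 and Kng2 rose by 0.67 and 0.71, but their control means lay at percentiles 9.67 and 14.9, and as close relatives they may share probe signal. Serpina1, the alpha-1-antitrypsin gene, fell by 0.79 on the log2 scale, from 5.51, 5.19 and 5.40 in control samples to 4.51, 4.57 and 4.67 in hCT1 samples (adjusted p = 0.000575 from limma). With hCT1 replicate 1 left out, 2 genes of this list were lower. The fibrinogen genes Fga, Fgb and Fgg, Crp and Hpx did not pass, with log2 differences between -0.13 and 0.11. In 16 of the 25 genes the control mean lay below percentile 40.

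Genes whose plasma products decline in the acute phase gave no calls, and in 10 of the 13 measured the control mean lay below percentile 40. Such dim genes may not have been detected in either group. All 13 measured missed limma's threshold, with 0 higher and 0 lower (median 0.06), with Ttr (transthyretin) at 0.25 and Alb (albumin) at 0.17 as the furthest values. At an unadjusted p under 0.05, 1 was higher and 0 were lower, and the unadjusted one-way test likewise gave 1 higher. Of 21 measured paralogs of the members, 0 were higher and 2 were lower, Serpina1 and the prostaglandin synthase gene Ptgds of the lipocalin family (-0.37, adjusted p = 0.0057 from limma). In 17 of these 21 the control mean lay below percentile 40. Among all probe sets tested, 4.98% were higher and 9.84% lower, so counts of this size say little about the paralogs. The paralogs of Serpina3n had log2 differences of 0.01 for Serpina3c and 0.03 for Serpina3m, and those of A2m lay between -0.06 for Mug1 and 0.24 for Pzp; these did not pass. Serpina1, Serpina3c, Serpina3m, Itih1, Mug1, Mug2, Rbp4 and Serpina6 stand in 2 of these lists.

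Receptors and partners through which the secreted members act gave few calls, as did all probe sets tested (4.98% higher and 9.84% lower). Counts of this size therefore say little about the list. The test called 1 of 22 measured genes higher and 1 lower and left 20 uncalled (median -0.000741). Tlr2, a receptor for bacterial lipoproteins, rose by 0.61, from 5.13, 4.99 and 5.22 to 5.52, 5.87 and 5.79 (adjusted p = 0.00345 from limma). Hmox1, the heme oxygenase that acts downstream of the uptake of hemoglobin bound to haptoglobin, fell by 0.28 on the log2 scale (adjusted p = 0.0256 from limma). The difference was -0.18 for Cd14 and -0.01 for Tlr4, partners of Lbp, -0.21 for Lrp1, which clears protease complexes of A2m, and 0.11 for the iron exporter gene Slc40a1, the partner of Cp, none of which passed. The lower call was absent without hCT1 replicate 2 and also without control replicate 1 or 2, while 2 genes were lower without control replicate 3. Leaving out control replicate 1 gave 2 higher genes, and the adjusted one-way test gave 0.

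Of 34 measured genes of the pathways that induce acute phase genes, here called inducers, 11 rose and 1 fell, which left 22 uncalled (median 0.06). Among all probe sets tested, 4.98% were higher and 9.84% lower. The list also holds the inhibitors Socs1, Socs3, Cish and Nfkbia, and the 11 include Socs3 and Cish (0.45). Socs3, the feedback inhibitor of gp130 signaling, rose by 1.36 on the log2 scale (adjusted p = 3.44e-06 from limma), Osmr by 0.86, the kinase gene Jak2 by 0.77 and Il6 by 0.48. The control mean of Il6 lay at percentile 35.8, where values may be background. Stat3 rose by 0.28 and Il6st, which encodes gp130, by 0.20. Of the C/EBP factors, Cebpd rose by 0.29, while Cebpb and Cebpa had differences of -0.01 and -0.13 that did not pass. Of the NF-κB genes, Nfkbiz, a nuclear cofactor of NF-κB that acts on the Lcn2 gene, rose by 0.45, Nfkb1 fell by 0.21 on the log2 scale and Rela was at 0.06. The liver factor gene Hnf4a lay at 0.02, with a control mean at percentile 37.8. Without control replicate 2 or hCT1 replicate 1, 7 genes of this list were higher. With control replicate 3 left out 3 genes were lower, and with any of the other 5 samples left out 0 were.

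**Figure D4:**
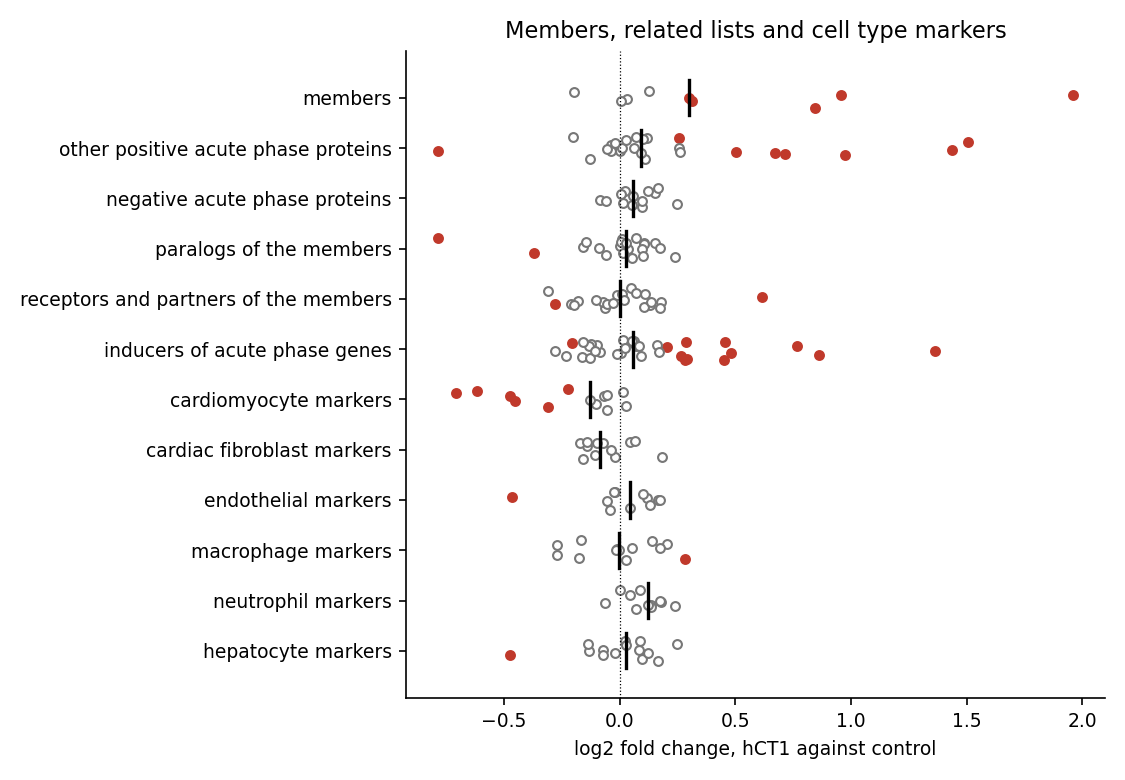
Rows are the members, 5 related lists and 6 of the 8 marker lists; a point marks a gene's log2 fold change between hCT1 and control means (n = 3 per group), in filled red where limma called it and open where it did not, with black lines at medians. Of the lists drawn, the members have the highest median, 0.30, and the cardiomyocyte markers the lowest, -0.13, while no neutrophil marker and no fibroblast marker passed.

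The labelled cell type was checked with markers. Over all probe sets tested, 4.98% were higher and 9.84% lower, so a count of 1 in a list says little about that list. The 13 cardiomyocyte markers were bright in all samples, with control means from percentile 83.5 to 99.8. Of these 0 were higher and 6 lower with hCT1, among them Ckm, Tnni3 and Myl2 (-0.71, -0.62 and -0.48). The other 7 did not pass, with log2 differences from -0.13 for Ryr2 to 0.03 for Tnnt2, and Myh7 at 0.01. The summed linear signal of the list ran from 30107 to 30512 in control and from 26977 to 28282 in hCT1 samples. In RNA of whole cultures, fewer cells of a type and less RNA per cell cannot be told apart. Fibroblast markers were also bright, led by Col1a1 at percentile 99.3, and 12 of 12 did not pass (sum 10348 to 10840 in control and 9797 to 10087 in hCT1 samples). Of 11 endothelial markers, 1 was lower, Emcn (no such marker was lower in 4 of the 6 fits that left out a sample, namely those without control replicate 2 or 3 and those without hCT1 replicate 1 or 2), and of 13 macrophage markers 1 was higher, Laptm5 (0.28, adjusted p = 0.0452 from limma). No macrophage marker was higher in 5 of the 6 fits that left out a sample, and 1 was in that without control replicate 1. With control replicate 3 or hCT1 replicate 3 left out, or with array weights, 1 macrophage marker was lower. The macrophage sum ran from 494 to 549 in control and from 467 to 517 in hCT1 samples. Neutrophils and hepatocytes, which make several of the members, had dim markers. All 11 neutrophil markers lay below percentile 40 in control samples and none passed (sum 150 to 159 in control and 158 to 171 in hCT1 samples; 1 was higher without control replicate 3). Of 14 hepatocyte markers, 12 lay below percentile 40, 0 were higher and 1 was lower, Fabp1 (sum 267 to 298 in control and 268 to 281 in hCT1 samples). The brightest markers were Elane for neutrophils, at percentile 35.3, and Apoc3 for hepatocytes, at percentile 57.1. Of 8 genes listed for smooth muscle and pericytes 1 was higher, Des (0.28, control mean at percentile 99.3), and 2 lower, Myh11 and Tagln (-0.39 and -0.30). The brightest of them was Acta2, at percentile 99.9 in control samples. RNA of whole cultures does not show which cells gave these signals. Of 8 mesothelial markers 1 was higher, Krt19 (1.82), and 3 lower, Krt18, Msln and Aldh1a2 (-0.71, -0.29 and -0.25). The count of lower ones was 1 without control replicate 2 or hCT1 replicate 2. Krt18 was the brightest mesothelial marker, at percentile 85.2, and the median of that list was -0.24. Whether the makeup of the cultures contributed to the rise of the members was not tested.

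The 6 arrays were alike, with Pearson's r over the 29215 probe sets of 0.997 to 0.998 within a group and 0.994 to 0.996 between groups, and no pair held identical values. After a second quantile normalization the calls over all probe sets were 917 higher and 1148 lower (44.4% higher) in place of 762 and 1506 (33.6% higher), and the same number of members, 5, was higher.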

How the data were processed

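Total RNA of 6 samples was measured on rat Affymetrix arrays of whole transcripts, 1 array per sample. The authors deposited log2 values made with RMA in Affymetrix Expression Console, per the labels without versions; RMA subtracts background, normalizes quantiles and summarises probes, which compresses the folds of dim probe sets. These values were used as deposited; they carry no detection calls, and the number of arrays limits the precision. The 15310 probe sets with exactly 1 symbol (15279 matched to RefSeq by Entrez identifier) were fitted in R 4.3.3 with lmFit and eBayes of limma 3.58.1 (2-sided, Benjamini-Hochberg adjustment over all of them, threshold 0.05). In lists, the brightest probe set stood for a gene. The fit was also run on simulated data with independent noise. That run cannot show whether shared array effects or technical spread affect the calls. A percentile is that of a group mean among all 29215 probe sets.

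The members and lists were chosen with earlier results of these data known. Genes named are the members, the 4 largest called changes of a list (the 2 largest values where none passed), up to 3 called markers and the brightest marker of a list, and the 3 nearest profiles; others were chosen after their values were seen. A planned comparison of protein sequences was not made here. Correlations of the deviations of same-numbered samples were -0.03, 0.05 and -0.28, so numbers were not treated as pairs. Alternatives were other eBayes settings, array weights, removal of probe sets whose mean signal lay below percentile 40, testing all probe sets, 2 normalizations, the one-way test of the study's statistics section, a replicate block, leaving out each sample and averaging probe sets.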

Additional observations from a re-analysis of the deposited data

How the results depend on the processing

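The rises of Serpina3n, Lbp and Lcn2 and of Cp passed the test under all 15 alternatives run for them, and that of Itih4 under all 14, the dim filter having removed it with A2m, Hp, Orm1 and Itih3. The log2 fold change ran from 1.82 to 2.06 for Serpina3n, 0.88 to 1.01 for Lbp, 0.81 to 0.90 for Lcn2, 0.29 to 0.36 for Cp and 0.26 to 0.34 for Itih4. The highest adjusted p of Itih4 was 0.0498, by the one-way test. The count of higher members was 5 in every alternative but the dim filter, which left 4 members, all higher. That filter used the mean over all 6 samples. Serpina3n, at percentile 33.4 in control and 57.9 in hCT1 samples, stayed through its hCT1 samples, so its place among the 4 depends on its rise. The count of lower members was 0 to 1 when samples were left out, the 1 being Hp without control replicate 3. Members that were not called changed sign near 0: Orm1 was -0.004 after a second quantile normalization and -0.035 without hCT1 replicate 1; Itih3 was -0.025, and -0.0038, -0.0067 and -0.050 without control replicate 2, control replicate 3 or hCT1 replicate 1. With samples left out, Orm1 ran from -0.035 to 0.072 and Itih3 from -0.050 to 0.060. With the replicate block, where the numbers are not known to pair samples, 490 probe sets in all were higher, 5 members were higher, and 0 inducers were lower.

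Over all probe sets, the one-way test gave 376 higher and 675 lower with adjustment, and 1483 and 2467 without. Leaving out samples gave 417 to 873 higher and 803 to 1810 lower. For inducers, 7 were higher by the adjusted one-way test and 7 to 10 with samples left out. Lower inducers numbered 2 with trend and robust settings, 3 with array weights, 2 after the dim filter, 0 over all probe sets, 0 after a second quantile normalization, and 0 to 3 with samples left out. Lower receptors and partners numbered 2, 3, 3, 0 and 2 under the same settings in the same order, 0 and 2 by the one-way test with and without adjustment, and 0 to 2 with samples left out; higher ones were 0 by the adjusted one-way test and 1 to 2 with samples left out. For negative acute phase genes, 1 was higher with array weights, after median centring and by the unadjusted one-way test. Of the other positive acute phase genes, 1 to 2 were lower with samples left out. The causes were not tested. Dim signal limits A2m, Hp, Orm1, Itih3 and Itih4, which the dim filter removed, and the control values of Serpina3n.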
